A study of Saccharomyces cerevisiae with 20 samples.

Results

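The 56 genes described here encode the proteins of the small (40S) subunit of the cytosolic ribosome of budding yeast, from RPS0A to RPS31. They were chosen by their systematic names (for example YPL081W for RPS9A, YJL191W for RPS14B, YLR264W for RPS28B and YKL156W for RPS27A), not by their values, and are 56 of the 7126 genes listed in each library. All 56 passed the filter on low counts and are among the 5849 genes tested. They form 24 pairs of A and B copies and 8 single-copy genes.

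Each 40S subunit holds 1 copy of each of these proteins around the 18S rRNA, so growing yeast makes them in matched amounts and spends much of its transcription on them. Ribosomal protein genes as a class are driven by Rap1 together with Fhl1, Ifh1 and Sfp1, and their transcription follows nutrient signalling through TORC1. The duplicated copies go back to a whole-genome duplication in the ancestor of the species. Introns are rare in yeast but common in these genes, and several of the proteins limit the splicing or the stability of a transcript of their own pair.

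RNA-seq of polyadenylated RNA was done on 4 double mutants that lack tRNA anticodon modifications and on their wild type. The elp3 deg1 strain lacks ELP3 (Elongator, needed for mcm5U at the wobble position 34) and DEG1 (the pseudouridine synthase for position 38). The urm1 deg1 strain lacks URM1 (needed for the thiolation of U34) and DEG1. The elp3 tcd1 and urm1 tcd1 strains lack ELP3 or URM1 together with TCD1, which is needed for the cyclic form of t6A at position 37. Previous genetics had assigned the deg1 combinations to the glutamine tRNA that reads CAA and the tcd1 combinations to the lysine tRNA that reads AAA. All strains were haploid BY4741 derivatives of mating type a, a background given as his3, leu2, met15 and ura3. The labels of every group, wild type included, also give lys2. Each genotype was 1 strain, and cells were grown in minimal medium to an OD600 of 1. The deletions were made with KanMX4, SpHIS5 or loxP cassettes. Among these strains the paper lists SpHIS5, a histidine marker, in elp3 deg1 alone. That group may thus differ from the others in its need for histidine, which was not tested. The labels give 4 libraries a group. Nothing in them says that these came from separate cultures, so p-values measure only the spread between libraries.

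The deleted genes were checked first. ELP3 had 0 to 3 counts in elp3 deg1, 3 to 7 in replicates 1 to 3 under the elp3 tcd1 label, and 425 to 500 in WT. URM1 had 0 to 1 counts in both urm1 mutants, against 87 to 121 in WT, and DEG1 had 0 in both deg1 mutants, against 226 to 273 in WT. TCD1 had 0 to 2 counts in replicates 1 to 3 labelled urm1 tcd1, but 147 to 185 in replicates 1 to 3 under the elp3 tcd1 label, against 377 to 407 in WT, so these elp3 tcd1 libraries do not lack TCD1 transcripts and go by their label below. In replicate 4 of each tcd1 label the deleted genes did not match. Replicate 4 of the elp3 tcd1 label had 345 counts of ELP3 and 0 of URM1, and replicate 4 of the urm1 tcd1 label had 5 of ELP3 and 174 of URM1. Both were left out, which leaves 18 libraries with 3273876 to 3926511 counts each, and values with them are given where they change a result. Chromosome XI, which carries RPS21A and RPS27A, stood at a median log2 difference from WT of 1.01 over its 325 genes tested in each of the 3 libraries of urm1 tcd1, and of 0.11 or less in the other libraries kept. In the libraries left out it was 0.98 for the elp3 tcd1 label and 0.02 for the urm1 tcd1 label.

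The marker genes of mating type a (STE2, MFA1, MFA2, BAR1 and STE6) had counts in every group, 5 of 5. Their sum was 1408 to 1587 counts in elp3 deg1, 12469 to 14936 in urm1 deg1, 2379 to 2773 under the elp3 tcd1 label, 3979 to 4299 in urm1 tcd1 and 4530 to 4791 in WT. The 4 alpha markers summed to 188 to 501 counts, most of them from SAG1, and MF(ALPHA)2 did not exceed 4 in any library. Of the auxotrophy genes LEU2, MET17 and URA3 had no counts in any library, while HIS3 and LYS2 had some in each group. The part of these differences in the results below was not tested.

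Values below are CPM, the reads of a gene relative to the size of its library, after TMM normalisation, which sets the libraries to a common scale. Folds are mutant over WT, on the log2 scale with their standard error, from edgeR's quasi-likelihood test over all 5849 genes, and a call needs a p-value, adjusted by Benjamini-Hochberg, of 0.01 or less. In bulk RNA, a change in RNA per cell and a change in the share of the transcriptome cannot be told apart. A single library held 123 to 9735 counts of a member, and a floor of 3 counts corresponds to 0.764 to 0.916 CPM.

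In WT the levels of these genes spanned a 56.9-fold range per kilobase of readable coding sequence. A position was readable if its 58-base window occurs once in the reference genome, both strands and splice junctions included. RPS31, which encodes a fusion of ubiquitin to its 40S protein, stood first with 3755 CPM per kilobase, and its 4 WT libraries did not overlap those of the next gene. RPS28A (2509) and RPS26A (2388) followed, and their WT libraries overlapped. At the low end stood RPS14B with 301, RPS22B with 132 and RPS9A with 66.0 CPM per kilobase, none of which overlapped its neighbour. Of the 55 steps in this order, 43 were within the overlap of the WT libraries. The median over the members was 1334. Readable positions were a median of 99.6% of the coding length but 32.2% in RPS8A and RPS8B and 36.0% in RPS6A and RPS6B, whose copies are nearly identical, so the values of these pairs rest on few positions and are uncertain. RPS2 and RPS27A overlap a gene on the opposite strand, and reads were counted by strand.

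Summed over all 56 genes, the family took 3.40% ± 0.11 of the counts in the elp3 deg1 libraries (SD, n = 4), 3.98% ± 0.067 in urm1 deg1 (n = 4), 3.17% ± 0.067 in the 3 libraries kept of the elp3 tcd1 label, 4.76% ± 0.16 in urm1 tcd1 (n = 3) and 3.20% ± 0.043 in WT (n = 4). The urm1 tcd1 libraries (4.604% to 4.916%) and the urm1 deg1 libraries (3.93% to 4.08%) lay above all WT libraries (3.16% to 3.26%). The elp3 deg1 libraries spanned 3.24% to 3.51% and the elp3 tcd1 label 3.11% to 3.24%, and both overlapped WT. Of the 2 libraries left out, the one labelled elp3 tcd1 replicate 4 had 4.73% and the one labelled urm1 tcd1 replicate 4 had 3.24%.

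**Figure D1:**
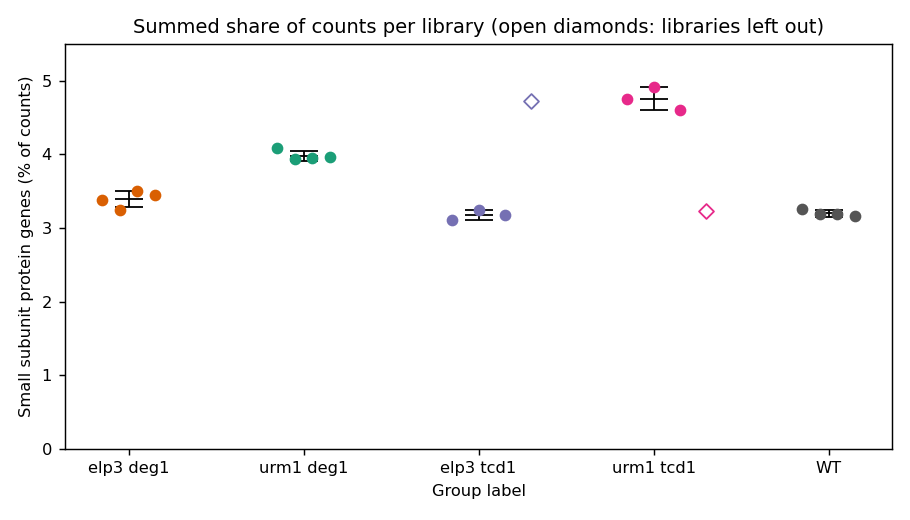
Summed counts of the 56 small subunit protein genes as a percent of all counts in a library (y axis) by group label (x axis). Points are libraries, bars the mean and SD, and open diamonds the libraries left out. The 3 urm1 tcd1 libraries sit at 4.604% to 4.916%, above the WT libraries at 3.16% to 3.26%, and the diamond labelled elp3 tcd1 lies at 4.73%.

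The 4 mutants differed in how many members changed and in which direction. In urm1 tcd1, 55 of 56 genes were called higher and 0 lower, with a median log2 fold change of 0.86. By edgeR at an unadjusted p under 0.05, and by DESeq2, the count of lower members was 0 as well, and the lowest log2 fold change was 0.09. Among all genes tested 32.8% were called higher and 32.2% lower in that mutant. The TMM factors over the 18 libraries kept were 0.846 to 0.872 in urm1 tcd1 and 1.04 to 1.05 in WT. A lower factor raises every fold of a group. The size of the urm1 tcd1 folds, and the calls of the small ones, thus depend on the scaling. In urm1 deg1, 40 members were called higher and 7 lower (33.2% and 33.1% of all genes), with a median of 0.25. In elp3 deg1, 34 were higher and 5 lower (33.1% and 33.4% of all genes), with a median of 0.18. In the libraries under the elp3 tcd1 label, 21 were higher and 23 lower, against 32.1% and 32.3% of all genes, and the median was -0.06. All 4 comparisons share the WT libraries. In urm1 tcd1 the raised level of chromosome XI goes with the genotype in every library kept, so their effects on these genes cannot be told apart. Each gene was called in at least 1 mutant, as were 95% of all genes tested.

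**Figure D2:**
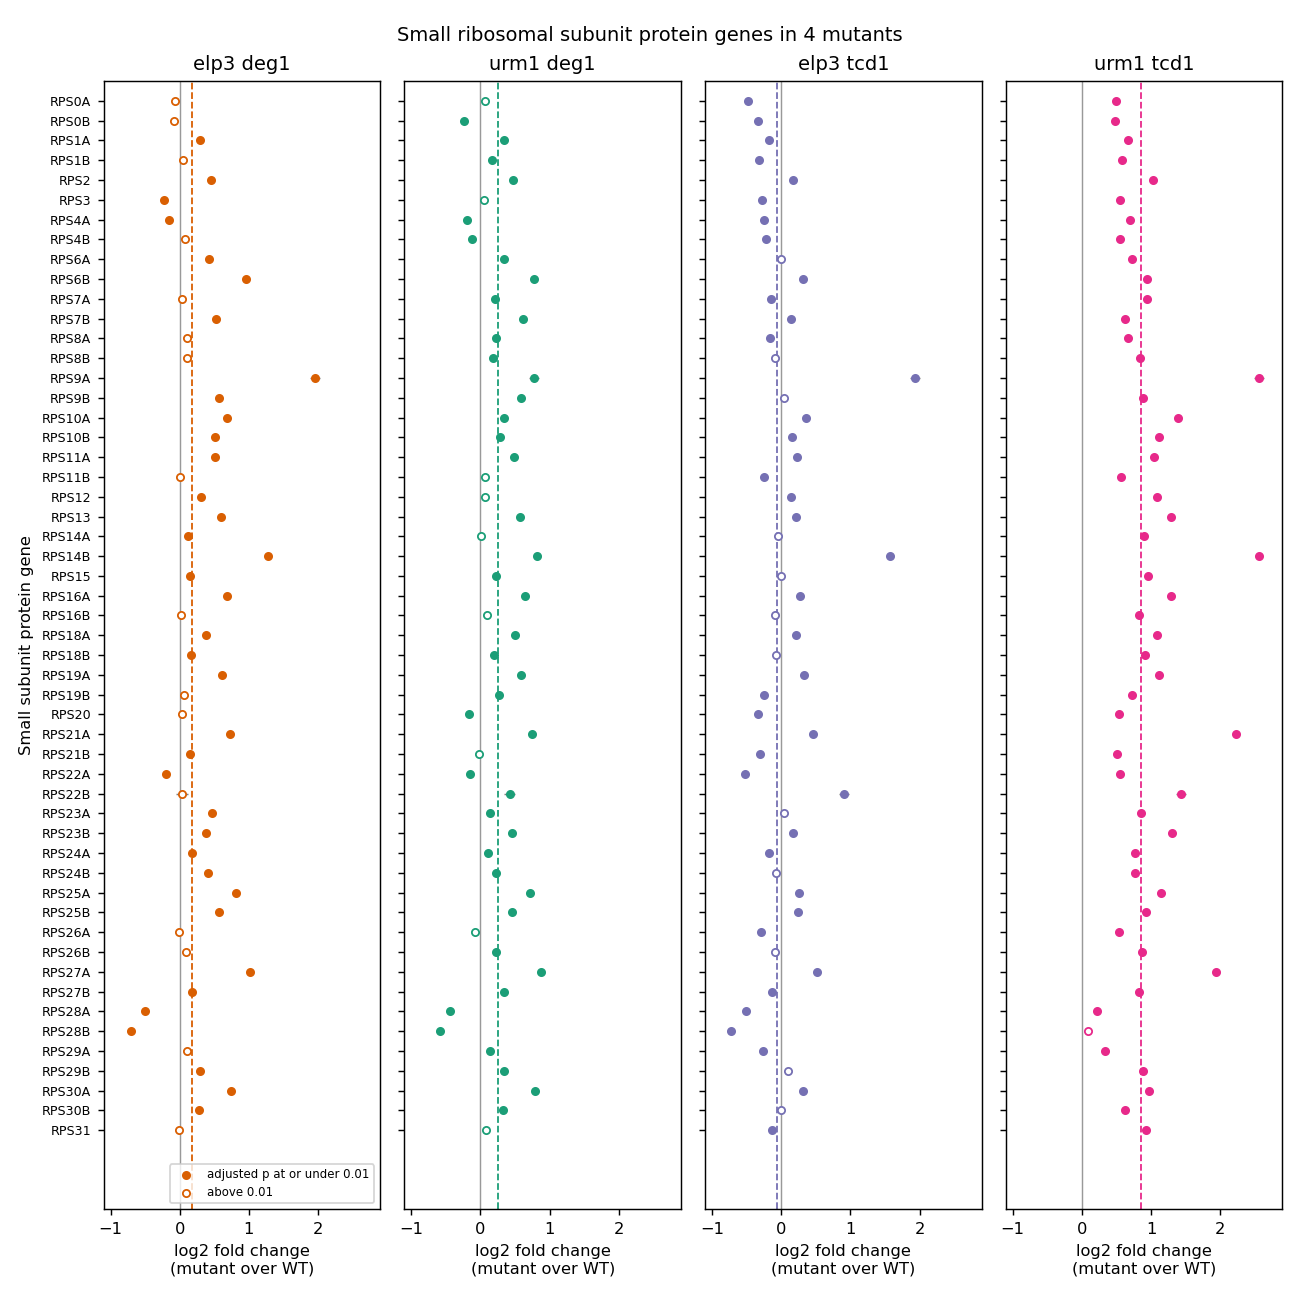
Log2 fold change of 53 of the 56 genes (y axis) in each mutant label over WT (x axis, 1 panel a mutant). Points are edgeR estimates with their standard error, filled where the adjusted p is at or under 0.01, and the dashed line is the median over all 56. RPS9A and RPS14B lie far to the right in urm1 tcd1, both at 2.56, and RPS28B has the lowest value in every panel.

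Adding the libraries left out, whose deleted genes go with the other tcd1 label, changed the tcd1 results. With all 4 libraries of the label, edgeR called 3 members higher and 0 lower in elp3 tcd1 (17 and 1 at an unadjusted p under 0.05), where the median was 0.22, and 25 higher and 0 lower in urm1 tcd1. Fewer genes were called genome-wide in these fits as well, 14.9% higher and 14.5% lower in elp3 tcd1 and 17.1% and 15.6% in urm1 tcd1. Requiring a log2 fold change of 0.5 as well as the adjusted p left 17 higher and 2 lower in elp3 deg1 (19% and 16.5% of all genes), 13 and 1 in the urm1 deg1 strain (15.3% and 17.1%), 4 and 3 under the elp3 tcd1 label (16.6% and 14.1%), and 51 and 0 in urm1 tcd1 (20% and 16.7%).

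The single-copy genes give the level of their protein's only transcript. All 8 were called higher in urm1 tcd1, with log2 fold changes of 0.53 to 1.29. Counts of higher and lower were 5 and 1 in elp3 deg1, 4 and 1 in the urm1 deg1 strain, and 3 and 4 under the elp3 tcd1 label. Of all genes tested, 32.1% to 33.2% were called higher and 32.2% to 33.4% lower in the 4 mutants. RPS13, a protein of the subunit's body, had 865, 826, 909 and 886 CPM in elp3 deg1, 926, 861, 831 and 893 in the urm1 deg1 strain, 672, 695 and 664 under the elp3 tcd1 label, 1420, 1463 and 1353 in urm1 tcd1, and 587, 590, 590 and 550 in WT. The mutant libraries all lay above those of WT. The log2 fold changes were 0.59, 0.57, 0.22 and 1.29 in this order, with standard errors of 0.034 to 0.035.

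RPS2, at the mRNA entry and known for mutations that alter decoding accuracy, had 1692, 1593, 1729 and 1752 CPM in elp3 deg1, 1803, 1757, 1732 and 1746 in the urm1 deg1 strain, 1346, 1454 and 1433 under the elp3 tcd1 label, 2555, 2599 and 2387 in urm1 tcd1, and 1236, 1244, 1254 and 1237 in WT. It was higher in each mutant without overlap with WT, by a log2 fold change of 0.18 (labelled elp3 tcd1) to 1.02 (urm1 tcd1). RPS3, next to it at the entry of the mRNA channel, had 1366, 1302, 1371 and 1351 CPM in elp3 deg1, 1704, 1675, 1686 and 1614 in the urm1 deg1 strain, 1262, 1336 and 1336 under the elp3 tcd1 label, 2319, 2385 and 2189 in urm1 tcd1, and 1605, 1599, 1573 and 1553 in WT. It was lower than all WT libraries in elp3 deg1 (log2 fold change -0.23, edgeR adjusted p = 1.68e-08) and in those labelled elp3 tcd1 (-0.28, adjusted p = 4.08e-13), higher in urm1 tcd1 (0.54, adjusted p = 6.61e-18), and was not called in urm1 deg1 (0.05, adjusted p = 0.0997).

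RPS20, a protein of the head, had 738, 716, 770 and 778 CPM in elp3 deg1, 671, 656, 690 and 669 in the urm1 deg1 strain, 560, 605 and 594 under the elp3 tcd1 label, 1075, 1084 and 1022 in urm1 tcd1, and 739, 753, 733 and 717 in WT. Its log2 fold changes were 0.03 in elp3 deg1 (edgeR adjusted p = 0.393), -0.16 in urm1 deg1, -0.33 under the elp3 tcd1 label and 0.53 in urm1 tcd1, the last 3 called and without overlap with WT.

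RPS12, in the beak of the head, had 1206, 1145, 1188 and 1186 CPM in elp3 deg1, 1110, 982, 990 and 1018 in the urm1 deg1 strain, 1067, 1059 and 1062 under the elp3 tcd1 label, 2023, 2134 and 1916 in urm1 tcd1, and 970, 973, 964 and 927 in WT. It was called higher in elp3 deg1 (0.30), for the elp3 tcd1 label (0.14) and in urm1 tcd1 (1.08), but not in urm1 deg1 (0.07).

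RPS15, needed for export of the subunit from the nucleus, had 819, 770, 856 and 843 CPM in elp3 deg1, 942, 885, 869 and 855 in the urm1 deg1 strain, 711, 764 and 757 under the elp3 tcd1 label, 1464, 1492 and 1373 in urm1 tcd1, and 757, 761, 731 and 725 in WT. It was called higher in elp3 deg1 (0.15), urm1 deg1 (0.23) and urm1 tcd1 (0.96), and overlapped WT for the elp3 tcd1 label (-0.01). RPS31 had 1703, 1654, 1803 and 1667 CPM in elp3 deg1, 1898, 1810, 1865 and 1831 in the urm1 deg1 strain, 1576, 1634 and 1521 under the elp3 tcd1 label, 3212, 3457 and 3084 in urm1 tcd1, and 1729, 1753, 1720 and 1692 in WT. In urm1 tcd1 it had a log2 fold change of 0.92 ± 0.032 (SE). In elp3 deg1 and urm1 deg1 it was not called (-0.01 and 0.07), and under the elp3 tcd1 label it was lower (-0.14).

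By place in the subunit the genes fall into 2 groups, between which no test was made. The calls below stand against 32.1% to 33.2% higher and 32.2% to 33.4% lower over all genes in the 4 mutants. Of the 22 genes for proteins of the head, 13 were higher and 3 lower in elp3 deg1, 15 and 3 in the urm1 deg1 strain, 9 and 9 under the elp3 tcd1 label, and 21 and 0 in urm1 tcd1, with median log2 fold changes of 0.16, 0.25, -0.04 and 0.92. Of the 34 genes for proteins of the body and platform, 21 were higher and 2 lower in elp3 deg1, 25 and 4 in the urm1 deg1 strain, 12 and 14 under the elp3 tcd1 label, and 34 and 0 in urm1 tcd1, with medians of 0.23, 0.27, -0.07 and 0.83.

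Introns interrupt 36 of the 56 coding sequences. Genes with an intron had median log2 fold changes of 0.40 in elp3 deg1, 0.34 in the urm1 deg1 strain, 0.04 under the elp3 tcd1 label and 0.90 in urm1 tcd1. The 20 genes without one had medians of 0.10, 0.18, -0.17 and 0.66, lower in each mutant. Over all genes tested, 32.2% to 33.4% were called lower in the mutants. Of the genes with an intron, 1, 3, 11 and 0 were called lower in the 4 mutants in this order, and of those without, 4, 4, 12 and 0. No test of this difference was made, and the counts cover spliced and unspliced RNA alike because reads in coding exons were counted.

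The A and B copies changed unequally in most pairs. The log2 ratio of A to B counts within a library, tested with limma over all pairs of best-matching proteins, was called in 19 of 24 pairs in elp3 deg1, 18 in the urm1 deg1 strain, 20 under the elp3 tcd1 label and 21 in urm1 tcd1. Among all such pairs of the genome 75.9%, 72.1%, 77.5% and 72.9% were called, so the shares in this family were near the background. The A copy gained on the B copy in 12, 10, 11 and 13 of the called pairs and lost in 7, 8, 9 and 8. With replicate 4 included, 14 pairs were called in elp3 tcd1 and 13 in urm1 tcd1, while over all pairs the shares called were 42.7% and 40.2%.

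**Figure D3:**
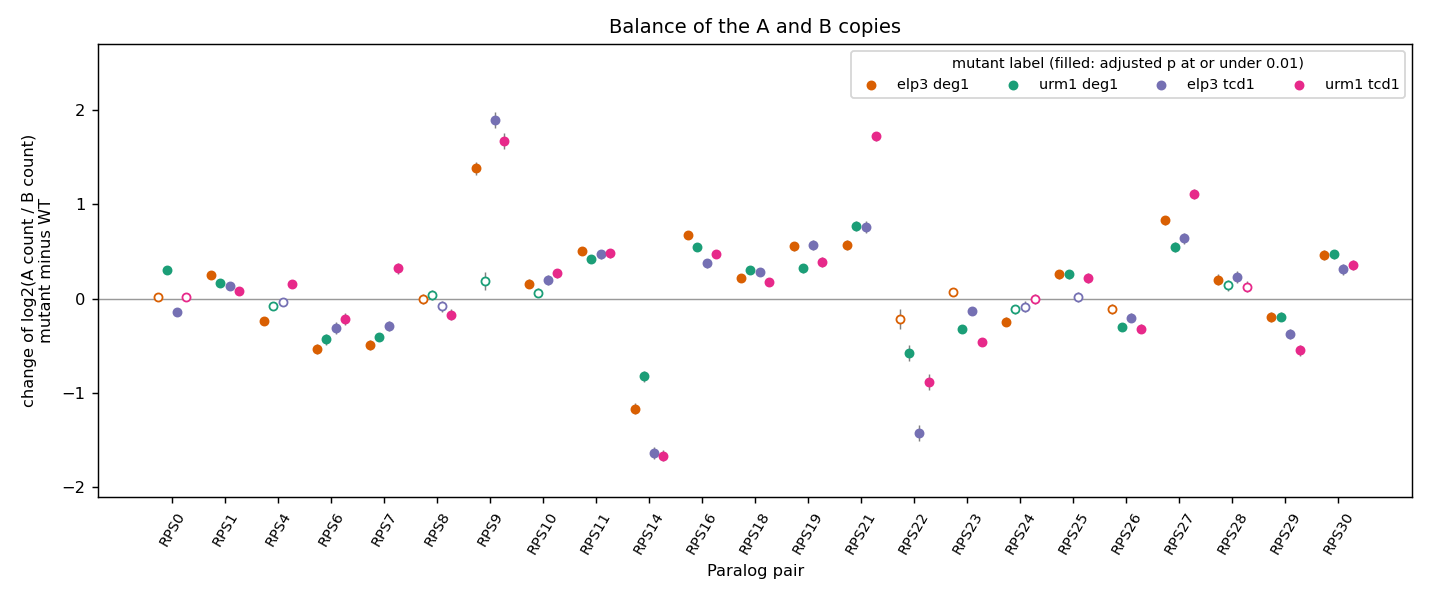
Change of log2(A count / B count), mutant minus WT (y axis), for 23 of the 24 pairs (x axis) in the 4 mutant labels. Points are limma estimates with their standard error, filled where the adjusted p is at or under 0.01. RPS14 is the pair with the lowest points, -0.82 to -1.66, and RPS9 and RPS21 reach 1.90 and 1.72.

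In 17 of 24 pairs in elp3 deg1, urm1 deg1 and the elp3 tcd1 label, and in 15 in urm1 tcd1, the copy with the lower WT level had the larger log2 fold change. The same held in 56.1%, 60.9%, 64.8% and 53.1% of the 335 other pairs. The lower copy was named from the WT libraries that also enter each fold. The lower copies had medians of 0.40, 0.44, 0.17 and 0.93, and the higher copies of 0.13, 0.18, -0.14 and 0.80.

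Several of these pairs differ in the letters at the start of the intron, the donor site that U1 snRNA pairs with, for which GTATGT is the usual yeast form. Among the 36 introns, 24 began with GTATGT, 9 with GTACGT and the others with GTATGA. The junctions of 3 pairs with large changes of the ratio are shown from 10 bases of exon into the intron (RefSeq genome R64, sense strand), with the donor letters in capitals.
RPS9A, intron chrXVI:404957-405457, plus strand: aacatgccaaGTACGTcgttaatc
RPS9B, intron chrII:604515-604927, plus strand: acaatgccaaGTACGTattagact
RPS14A, intron chrIII:177907-178213, minus strand: gccatgtctaGTATGTttaatcac
RPS14B, intron chrX:73797-74204, plus strand: atggctaacgGTACGTgaaagggg
RPS21A, intron chrXI:551681-552002, plus strand: gggccaattaGTATGTtcgagaaa
RPS21B, intron chrX:156790-157249, minus strand: gggtcaattaGTACGTaaattata
Both RPS9 copies carry GTACGT and lack the usual branch point letters TACTAAC, which RPS21A lacks too. In the RPS14 pair the copy with GTACGT gained on the other in all 4 mutants, and in the RPS21 pair it lost. The 9 genes with GTACGT had median log2 fold changes of 0.61, 0.59, 0.31 and 0.98, and the 24 with GTATGT of 0.28, 0.26, 0.00 and 0.90 in the 4 mutants in the order above. No test of this difference was made, and the 9 include RPS9A and RPS14B, whose pairs are shown for their large changes.

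RPS9 binds 18S rRNA early in assembly and lines the mRNA entry, and splicing of RPS9A is known to be held back when the protein is plentiful. RPS9A (chrXVI:404950-406044) had 144, 132, 160 and 149 CPM in elp3 deg1, 66.3, 69.4, 62.7 and 66.1 in the urm1 deg1 strain, 130, 153 and 156 under the elp3 tcd1 label, 217, 238 and 214 in urm1 tcd1, and 35.9, 40.9, 39.8 and 35.3 in WT. No mutant library overlapped WT, and the folds were 3.86, 1.71, 3.82 and 5.90 (log2 1.95 ± 0.071, 0.77 ± 0.077, 1.93 ± 0.074 and 2.56 ± 0.068 SE, edgeR adjusted p at most 2.55e-12).

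RPS9B, the main copy, had 958, 880, 973 and 939 CPM in elp3 deg1, 1000, 964, 975 and 949 in the urm1 deg1 strain, 634, 677 and 652 under the elp3 tcd1 label, 1153.6, 1212.2 and 1143.9 in urm1 tcd1, and 621, 642, 652 and 624 in WT. It was higher in both deg1 mutants and in urm1 tcd1, and under the elp3 tcd1 label it was not called (log2 0.04, edgeR adjusted p = 0.332). RPS9A thus made up 13.4% ± 0.53 of the pair per readable base in elp3 deg1, 6.31% ± 0.30 in urm1 deg1, 18.1% ± 1.2 under the elp3 tcd1 label, 15.9% ± 0.36 in urm1 tcd1 and 5.58% ± 0.29 in WT (SD). The ratio was not called in urm1 deg1 (change 0.19, limma adjusted p = 0.0559), where both copies moved together, and was called in the other mutants.

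**Figure D4:**
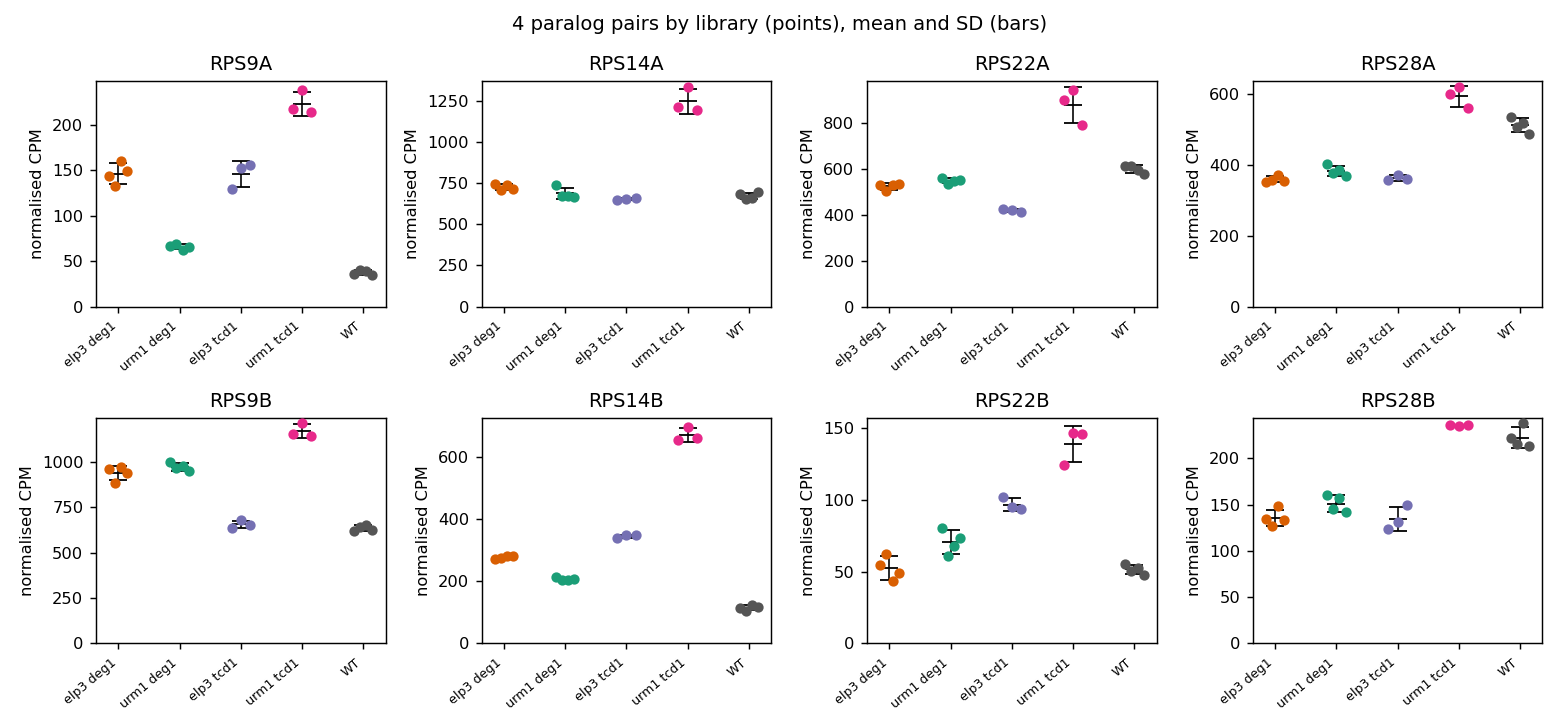
Normalised CPM (y axis) of both copies of RPS9, RPS14, RPS22 and RPS28 by group label (x axis), A copies above and B copies below. Points are libraries and bars the mean and SD. RPS14B rises to 655 to 697 CPM in urm1 tcd1 against 105 to 123 in WT, while RPS28B in urm1 tcd1 (235 to 236) lies within its WT range of 213 to 238.

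RPS14 sits on the platform and helps shape the exit of the mRNA channel, and its protein is known to bind the RPS14B transcript and block its splicing. RPS14B (chrX:73787-74611) had 271, 274, 282 and 282 CPM in elp3 deg1, 213, 203, 203 and 206 in the urm1 deg1 strain, 338, 348 and 348 under the elp3 tcd1 label, 655, 697 and 661 in urm1 tcd1, and 113, 105, 123 and 117 in WT. The groups did not overlap, and the folds were 2.42, 1.77, 2.99 and 5.88. RPS14A had 744, 710, 737 and 716 CPM in elp3 deg1, 740, 671, 674 and 664 in the urm1 deg1 strain, 647, 651 and 659 under the elp3 tcd1 label, 1211, 1335 and 1192 in urm1 tcd1, and 683, 652, 662 and 695 in WT. Beyond urm1 tcd1 (log2 0.89) and a small rise in elp3 deg1 (0.11, edgeR adjusted p = 0.00292) it was not called. RPS14B made up 27.5% ± 0.67 of the pair in elp3 deg1, 23.0% ± 0.54 in urm1 deg1, 34.4% ± 0.27 under the elp3 tcd1 label, 34.9% ± 0.68 in urm1 tcd1 and 14.5% ± 0.79 in WT (SD). The change of the log2 ratio of A to B was -1.17, -0.82, -1.63 and -1.66 (SE 0.057 to 0.061, limma adjusted p at most 1.46e-13).

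RPS22, a body protein that binds 18S rRNA, has in RPS22B a copy whose transcript is known to be cut by the RNase III enzyme Rnt1 and whose intron holds the snoRNA gene snR44. RPS22B had 54.9, 62.6, 43.5 and 49.3 CPM in elp3 deg1, 80.5, 61.1, 67.7 and 73.3 in the urm1 deg1 strain, 102, 95 and 93.5 under the elp3 tcd1 label, 124, 147 and 146 in urm1 tcd1, and 55.4, 50.5, 52.2 and 47.9 in WT. It overlapped WT in elp3 deg1 (log2 0.04, edgeR adjusted p = 0.729) and was higher in urm1 deg1 (0.42), under the elp3 tcd1 label (0.90) and in urm1 tcd1 (1.44). RPS22A had 529, 502, 530 and 533 CPM in elp3 deg1, 562, 536, 546 and 552 in the urm1 deg1 strain, 425, 423 and 412 under the elp3 tcd1 label, 900, 942 and 792 in urm1 tcd1, and 613, 612, 597 and 579 in WT. In the first 3 it lay below every WT library, by log2 fold changes of -0.19, -0.16 and -0.52, and in urm1 tcd1 above (0.55). The copies thus moved in opposite directions in urm1 deg1 and under the elp3 tcd1 label, where the log2 ratio changed by -0.58 and -1.42 (limma adjusted p = 4.06e-09 and 1.85e-19).

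RPS16, in the head, has copies with identical proteins. RPS16A had 619, 596, 620 and 613 CPM in elp3 deg1, 623, 590, 594 and 614 in the urm1 deg1 strain, 458, 474 and 459 under the elp3 tcd1 label, 941, 958 and 882 in urm1 tcd1, and 413, 373, 370 and 364 in WT. RPS16B had 537, 510, 554 and 540 CPM in elp3 deg1, 600, 573, 573 and 567 in the urm1 deg1 strain, 494, 508 and 502 under the elp3 tcd1 label, 924, 978 and 913 in urm1 tcd1, and 541, 526, 529 and 535 in WT. RPS16A was higher in all 4 (log2 0.69, 0.64, 0.28 and 1.29), while RPS16B was called in urm1 tcd1 alone (0.82), with 0.01, 0.09 and -0.09 in the others.

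The 2 members on chromosome XI are the A copies of RPS21 and RPS27. RPS27, with a zinc finger on the platform, had for RPS27A 330, 327, 353 and 341 CPM in elp3 deg1, 308, 307, 329 and 320 in the urm1 deg1 strain, 228, 246 and 250 under the elp3 tcd1 label, 611, 684 and 640 in urm1 tcd1, and 167, 164, 167 and 174 in WT. All mutant libraries lay above WT, by log2 fold changes of 1.01, 0.88, 0.51 and 1.95. RPS21A had 292, 274, 291 and 282 CPM in elp3 deg1, 290, 303, 295 and 297 in the urm1 deg1 strain, 247, 227 and 241 under the elp3 tcd1 label, 795, 867 and 755 in urm1 tcd1, and 168, 175, 178 and 171 in WT. Its log2 fold changes were 0.72, 0.75, 0.46 and 2.23. Both A copies were thus higher also in the groups where the median of chromosome XI was 0.11 or less. In urm1 tcd1 the chromosome's median of 1.01 moves with their values, and its part in them was not tested. Their partners lie on other chromosomes.

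RPS21B had 389, 381, 419 and 407 CPM in elp3 deg1, 393, 349, 357 and 343 in the urm1 deg1 strain, 278, 301 and 297 under the elp3 tcd1 label, 486, 555 and 483 in urm1 tcd1, and 358, 342, 379 and 360 in WT. Its log2 fold changes were 0.15, -0.03, -0.31 and 0.50, all called but the second. RPS27B had 459, 419, 451 and 472 CPM in elp3 deg1, 533, 510, 497 and 510 in the urm1 deg1 strain, 364, 371 and 366 under the elp3 tcd1 label, 722, 732 and 664 in urm1 tcd1, and 399, 382, 397 and 415 in WT. Its log2 fold changes were 0.18, 0.33, -0.13 and 0.83, all called. The ratio of A to B was higher in every mutant in both pairs, by 0.57, 0.77, 0.76 and 1.72 for RPS21 and by 0.83, 0.55, 0.64 and 1.11 for RPS27. In urm1 tcd1 RPS21A made up 61.3% ± 0.61 of its pair, against 32.5% ± 0.93 in WT, so the copy with fewer reads in WT had more there. Without these 2 genes, 53 of 54 members were called higher in urm1 tcd1 (32.8% of all genes), and the median of the 54 was 0.84. Leaving them out does not remove any effect of the raised chromosome on the other 54, which cannot be told apart from that of the deletions.

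RPS28A and RPS28B had the lowest log2 fold changes of the members in both deg1 mutants. Rps28 is a small protein of the head near the mRNA exit, and it is known to bind the RPS28B mRNA and bring about its decay. RPS28B (chrXII:673131-673334) had 134, 127, 148 and 133 CPM in elp3 deg1, 160, 145, 157 and 142 in the urm1 deg1 strain, 124, 131 and 150 under the elp3 tcd1 label, 236, 235 and 236 in urm1 tcd1, and 222, 216, 238 and 213 in WT. In the first 3 it lay below every WT library, at folds of 0.611, 0.665 and 0.603, and in urm1 tcd1 it was the member that was not called (fold 1.06, edgeR adjusted p = 0.095). RPS28A had 353, 358, 371 and 354 CPM in elp3 deg1, 401, 379, 386 and 367 in the urm1 deg1 strain, 357, 372 and 361 under the elp3 tcd1 label, 601, 619 and 562 in urm1 tcd1, and 534, 507, 519 and 488 in WT. Its folds were 0.703, 0.733, 0.705 and 1.16, all called. Both copies were lower in the first 3 mutants, and the A to B ratio changed by 0.13 to 0.23 on the log2 scale, called in elp3 deg1 and for the elp3 tcd1 label (limma adjusted p = 0.00279 and 0.00132).

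In the promoters of both RPS28 genes the letters TCA and ACG stand 6 bases apart, the core read by the factor Abf1. The windows run from 250 bases before the coding start to 50 after it (RefSeq genome R64, sense strand), with the Abf1 letters in capitals, which read CGT and TGA on this strand and begin 164 bases before the start in RPS28A and 181 in RPS28B.
RPS28A promoter, chrXV:648958-649257, minus strand: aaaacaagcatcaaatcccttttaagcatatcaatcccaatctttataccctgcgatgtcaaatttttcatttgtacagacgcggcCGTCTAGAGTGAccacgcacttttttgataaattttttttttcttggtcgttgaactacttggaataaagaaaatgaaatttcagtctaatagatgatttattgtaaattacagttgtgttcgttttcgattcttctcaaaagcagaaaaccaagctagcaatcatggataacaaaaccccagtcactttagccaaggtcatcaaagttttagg
RPS28B promoter, chrXII:672881-673180, plus strand: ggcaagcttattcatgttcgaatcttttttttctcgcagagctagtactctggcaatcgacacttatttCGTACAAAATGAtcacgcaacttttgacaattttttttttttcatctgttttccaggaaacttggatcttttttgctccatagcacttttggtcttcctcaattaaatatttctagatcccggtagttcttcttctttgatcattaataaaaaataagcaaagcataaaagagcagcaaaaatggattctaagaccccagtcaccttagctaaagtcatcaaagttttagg
The Abf1 letters were found on either strand in 10 of the 56 windows (17.9%), against 15% of all 5602 windows, and within 500 bases before the start in 12 of 56 (21.4%, against 23.3% of all). In 7 of the 10 they lay before the coding start, in RPS4A, RPS13, RPS21A, RPS24B, RPS26A and the RPS28 pair. In RPS21B, RPS22A and RPS22B they lay after it, within the gene. The calls over all genes were 32.1% to 33.2% higher and 32.2% to 33.4% lower in the 4 mutants. The 10 genes with Abf1 letters had 4 higher and 4 lower calls in elp3 deg1, 4 and 4 in the urm1 deg1 strain, 3 and 6 under the elp3 tcd1 label, and 9 and 0 in urm1 tcd1. Their median log2 fold changes were 0.01, -0.05, -0.27 and 0.63. Rap1 letters (ACCCNNACA, either strand) stood in 4 of the 56 windows (7.14%, against 2.77% of all) and in 18 of 56 within 500 bases before the start (32.1%, against 5.48% of all). The 18 had medians of 0.34, 0.32, -0.05 and 0.88, and the other 38 of 0.16, 0.23, -0.06 and 0.86. The Fhl1 letters GACGCA stood in 4 of the 300-base windows (7.14%, against 5.75% of all) and AAAATTTT in 3 (5.36%, against 9.35% of all). Within 500 bases they stood in 6 (10.7%, against 10.4% of all) and 4 (7.14%, against 12.9% of all).

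The remaining lower calls were few outside the libraries labelled elp3 tcd1. In elp3 deg1 they were RPS3 and RPS4A beside RPS22A and the RPS28 pair. In urm1 deg1 they were RPS0B, RPS4A, RPS4B and RPS20 beside the same 3. RPS0B, whose protein is needed late in assembly of the subunit, had 957, 856, 975 and 961 CPM in elp3 deg1 (not called), 890, 855, 849 and 829 in urm1 deg1, 797, 789 and 793 under the elp3 tcd1 label and 1347, 1438 and 1340 in urm1 tcd1, against 978, 996, 1010 and 994 in WT. In urm1 deg1 it lay below every WT library, with a log2 fold change of -0.25 (edgeR adjusted p = 5.14e-10).

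Contrasts between mutants put the difference between the groups to a test. In those with urm1 tcd1, the level of chromosome XI differs along with the deleted genes, and their effects cannot be told apart. In urm1 tcd1 against the elp3 tcd1 label, a comparison added after the data were seen, 56 of 56 members were higher, against 29.7% higher and 30.3% lower among all genes (60% in either direction), with a median log2 difference of 0.85. The values ran from 0.46 for RPS7B to 1.76 for RPS21A, and 1.12 was the highest outside chromosome XI. With all 4 libraries of both labels, edgeR called 0 of all 5828 genes in that contrast. Each label then mixes libraries whose deleted genes differ, so this fit cannot tell whether the members differ between the strains. At an unadjusted p under 0.05, 51 members were higher, as were 1047 of all genes, and 860 of all genes were lower.

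In urm1 deg1 against urm1 tcd1, 0 members were higher and 55 lower (34.4% and 33.9% of all genes), with a median of -0.59 and RPS9A (-1.75) and RPS14B (-1.70) at the low end. Counted in either direction, 68.3% of all genes were called. RPS7B was not called (0.04), and no member was higher at an unadjusted p under 0.05 or by DESeq2. In elp3 deg1 against the elp3 tcd1 label, 48 were higher and 2 lower (30% and 29.9% of all genes, 59.9% in either direction), with a median of 0.28. The lower members were RPS22B (-0.88) and RPS14B (-0.31), and RPS9A (0.00), RPS28A (-0.02) and RPS28B (0.01) were among the 6 not called. With a log2 difference of 0.5 also required, 55 members were higher and 0 lower in urm1 tcd1 against the elp3 tcd1 label (16.6% and 17% of all genes), 0 and 35 in urm1 deg1 against urm1 tcd1 (20.4% and 20.8%), and 3 and 1 in elp3 deg1 against the elp3 tcd1 label (12.1% and 14.4%). With replicate 4 included, 0 members were higher and 10 lower in urm1 deg1 against urm1 tcd1 (21.2% and 23.6% of all genes), and 1 was higher and 1 lower in elp3 deg1 against elp3 tcd1 (17.2% and 18.5% of all genes).

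The coding sequences of the family are uneven in their choice of lysine and glutamine codons, which include the AAA and CAA of the tRNAs assigned to these mutants. Of their lysine codons a median of 17.2% were AAA, against 58.3% in all genes tested. RPS9A, RPS10A, RPS12, RPS14A and RPS20 had no AAA codon, and RPS29A with 75% had the highest share. Of their glutamine codons a median of 100% were CAA, against 69.2% in all genes, and the lowest share was 80% (RPS9A and RPS22B). Per codon of the gene, AAA made up a median of 1.49% (all genes 4.12%) and CAA 3.66% (all genes 2.55%). RPS28A and RPS28B share a 50% AAA share of 4 lysine codons. These are properties of the reference sequence and no relation to the folds was tested. The paper also names a glutamate tRNA (UUC) as a carrier of the U34 modifications, and glutamate codons were not compared with all genes here.

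**Figure D5:**
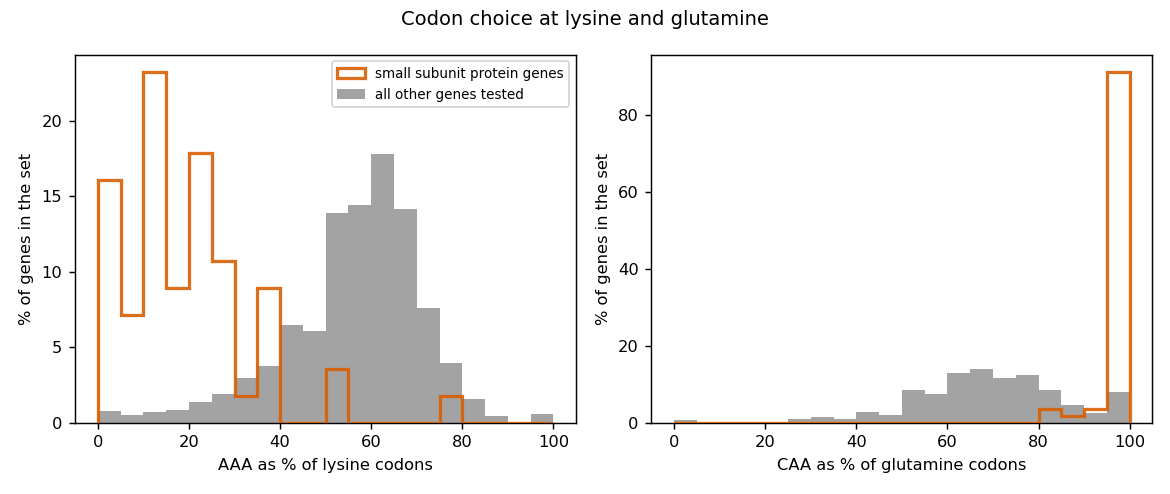
Share of AAA among lysine codons (left, x axis in percent) and of CAA among glutamine codons (right), as the percent of genes in each set (y axis), for the 56 small subunit protein genes (line) and all other genes tested (grey). The line lies left of the grey bars for AAA, with a median of 17.2% (58.3% over all genes tested), and at the right end for CAA, with a median of 100%.

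Genes tied to the family were described from lists chosen with earlier results of these data known. Over all genes tested, 32.1% to 33.2% were called higher and 32.2% to 33.4% lower in the 4 mutants, which is the background for these counts. The 82 genes for proteins of the large subunit had 49 higher and 15 lower calls in elp3 deg1, 49 and 12 in the urm1 deg1 strain, 22 and 38 under the elp3 tcd1 label, and 78 and 1 in urm1 tcd1, with medians of 0.23, 0.22, -0.08 and 0.77. Their mean summed shares of counts were 4.71%, 5.56%, 4.43% and 6.54% in this order, and 4.89% in WT. In elp3 deg1 the share was thus below the WT mean, with overlapping libraries, while the median fold change after TMM was positive. In both subunits urm1 tcd1 had the highest median and the elp3 tcd1 label the lowest. Of 21 regulators of ribosomal protein genes, 3 were higher and 10 lower in elp3 deg1, 4 and 3 in the urm1 deg1 strain, 11 and 3 under the elp3 tcd1 label, and 10 and 2 in urm1 tcd1. The list holds activators and repressors alike, so these counts carry no direction for the family, and only a part of it is given singly. RAP1 had log2 fold changes of -0.41, -0.08, 0.12 and 0.16, called in elp3 deg1 alone. FHL1 had -0.11, 0.38, 0.65 and 0.42, the last 3 called. The kinase gene SCH9, downstream of TORC1, had log2 fold changes of 0.43, 0.22, 0.91 and 0.81, all called. SFP1 had 0.09, 0.38, 0.45 and 0.39, the last 3 called. IFH1, the coactivator, had 0.47, 0.04, 0.36 and 0.28, and the corepressor gene CRF1 had -0.30, -0.06, 0.97 and -0.44, called in all but urm1 deg1 in both cases. ABF1, on chromosome XI, had 0.18, -0.46, 1.10 and 1.31, not called in elp3 deg1.

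Of 14 genes for 40S chaperones and late assembly factors, 0 were higher and 9 lower in elp3 deg1, 6 and 4 in the urm1 deg1 strain, 2 and 2 under the elp3 tcd1 label, and 5 and 3 in urm1 tcd1. The shares over all genes tested were 32.1% to 33.2% higher and 32.2% to 33.4% lower in the 4 mutants. YAR1, the chaperone of Rps3, had -0.74, -0.68, -0.44 and 0.04, the first 3 called, and TSR3, which modifies 18S rRNA, was lower in all 4 (-1.35, -0.83, -0.95 and -0.91). LTV1, also on chromosome XI, had -0.50, 0.41, 0.17 and 1.00. Of the 5 genes for factors bound to the subunit and for ubiquitin, ASC1, whose product sits on the head, was called in urm1 tcd1 alone (0.77), with -0.09, -0.03 and -0.01 in the others. STM1, which clamps idle ribosomes, was lower in the first 3 (-0.66, -0.81 and -0.89) and had 0.06 in urm1 tcd1. The polyubiquitin gene UBI4 was higher in the first 3 (0.74, 0.75 and 0.86) and lower in urm1 tcd1 (-0.11), whereas the ubiquitin fusion RPS31 moved the other way there. The list as a whole had 3 higher and 1 lower calls in elp3 deg1, 3 and 1 in the urm1 deg1 strain, 1 and 2 under the elp3 tcd1 label, and 3 and 1 in urm1 tcd1.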

How the data were processed

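The authors deposited raw read counts per gene for each library. Per the labels and the submitters' processing notes, stranded mRNA libraries were aligned with STAR 2.5.1b to genome build R64 and counted with featureCounts 1.4.6-p2 (strand option 2, annotation R64-1-1.84). Multi-mapping reads are left out by default, which affects near-identical copies. The notes name HTSeq and DESeq2 1.10.1 too.

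The deposited counts were tested with edgeR 4.0.16 (R 4.3.3): TMM, filterByExpr with a minimum count of 10, the quasi-likelihood test, 1 fit per mutant with WT, and 1 fit over all 18 libraries between mutants. Ratios of copies were tested with limma 3.58.1 on log2 counts with 0.5 added, over 416 reciprocal best protein pairs (BLAST 2.17.0), of which those with a mean of at least 10 counts in both copies entered each fit. DESeq2 1.42.0 was an alternative. Floors cover counting error only. Both tests were also run on simulated counts with known changes. Of 100 genes changed by 0.5 on the log2 scale edgeR found 90 in elp3 deg1 (5809 genes fitted), 92 in urm1 deg1 (5799), 94 in elp3 tcd1 (5804) and 87 in urm1 tcd1 (5813), and of 100 changed by 1 it found 96, 95, 92 and 92 in this order, with 1, 3, 2 and 3 false calls in all. The limma ratio test found 27 of 28, 15 of 17, 24 of 26 and 23 of 24 pairs with a changed copy (349 to 350 pairs fitted), with 0 false calls. Far larger shares of genes and pairs were called in the data than were changed here. The simulation thus cannot tell how scaling and false calls behave where most genes change. Promoters and introns were read from the RefSeq genome of build R64, and motifs were searched on both strands.

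Genes given with all values were single copies, genes on chromosome XI, the 3 largest changes each way per mutant without overlap with WT, and the 5 pairs of largest ratio change per mutant. Some members that meet this rule are not reported here singly, but enter every fit and count. The members were taken by name, and earlier results of these data were known when they and the lists were chosen. Alternatives were another tool, scaling, filter, threshold or fit, each library left out, and all 4 libraries of the tcd1 labels.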

Additional observations from a re-analysis of the deposited data

Results flagged for a closer look

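In groups of 4 libraries, 69 sets of values were examined for a library far from its group, and 4 had one, where chance gives about 1 in 20. The lowest elp3 deg1 library of RPS0B had 856 CPM and that of RPS22A 502 CPM. The highest urm1 deg1 library of RPS14A had 740 CPM. The lowest WT library of RPS13 had 550 CPM.

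The mutants differed from each other in a test of the difference itself. This held for 50 of 56 members in elp3 deg1 against the elp3 tcd1 label (59.9% of all genes), for 55 in urm1 deg1 against urm1 tcd1 (68.3% of all), and for 56 in urm1 tcd1 against the elp3 tcd1 label (60% of all). The unused library carrying the elp3 tcd1 label as replicate 4 had a summed share of 4.73% of counts for the family, above the highest WT library with 3.26%.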

How the results depend on the processing

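Requiring a log2 fold change of 0.5 left 17 members higher and 2 lower in elp3 deg1 (1112 and 967 of all 5849 genes), 13 and 1 in the urm1 deg1 strain (897 and 998), 4 and 3 under the elp3 tcd1 label (973 and 827), 3 and 1 in elp3 deg1 against the elp3 tcd1 label (707 and 840), and 0 and 35 in urm1 deg1 against urm1 tcd1 (1193 and 1218). With all 4 libraries of the tcd1 labels, 3 were higher and 0 lower for elp3 tcd1 (edgeR, 17 and 1 at an unadjusted p under 0.05, and 871 and 845 of all 5828 genes called), with the median at 0.22, and 25 and 0 for urm1 tcd1 (995 and 907 of all). In the contrasts, 1 was higher and 1 lower in elp3 deg1 against elp3 tcd1 (1003 and 1078 of all), 0 and 10 in urm1 deg1 against urm1 tcd1 (1234 and 1373 of all), and 0 of the members and 0 of all genes were called by edgeR in urm1 tcd1 against elp3 tcd1 (51 members and 1047 of all genes higher at an unadjusted p under 0.05). The ratio was called in 13 pairs for urm1 tcd1, and in 141 of all 351 pairs. The log2 fold changes of RPS27B (0.14) and RPS31 (0.21) turned positive for elp3 tcd1. These fits mix libraries whose deleted genes differ.

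Without chromosome XI in the total, the summed share was 3.54% in elp3 deg1, 4.16% in urm1 deg1, 3.31% under the elp3 tcd1 label, 5.20% in urm1 tcd1 and 3.33% in WT. Rap1 letters stood in 18 promoters with 500 bases and in 4 with the shorter window. Leaving out each library in turn gave 32 to 37 higher and 5 lower in elp3 deg1, 37 to 42 and 6 to 7 in urm1 deg1, 20 to 21 and 22 to 24 under the elp3 tcd1 label, and 55 higher in urm1 tcd1. Called ratios ranged over 17 to 19, 18, 18 to 20 and 19 to 21 pairs in the 4 mutants. With the replicate number as a block, 34 were higher and 5 lower in elp3 deg1, 41 and 7 in the urm1 deg1 strain, 20 and 22 under the elp3 tcd1 label, and 55 and 0 in urm1 tcd1. The numbers were not a pairing: deviations of libraries with the same number had a mean correlation of 0.008 over 33 pairs, against -0.003 over 96 others. Of 205 values with the block, 201 kept their call. Of 2510 single-gene and single-pair values outside the fits with all 4 libraries, 2431 kept direction and call, 63 lost the call and 16 gained one.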
